A study of Mus musculus with 2 samples.

Results

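The nuclear factor I (NFI) family is a set of 4 mouse transcription factors encoded by the genes Nfia, Nfib, Nfic and Nfix. The members were taken from the deposited gene tables by their Ensembl identifiers, and all 4 were found among the 43346 mouse genes that the tables list. Each NFI protein binds DNA as a homodimer or heterodimer through a conserved N-terminal domain, and its C-terminal part, which varies through alternative splicing, activates or represses transcription. In the developing brain the family is known for starting astrocyte differentiation, for ending the self-renewal of progenitors and for driving the maturation of cerebellar granule neurons. Members differ in where they are needed: mice without Nfib form the pons and the lung abnormally, while loss of Nfic is best known for stunted tooth roots.

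The levels come from hindbrain RNA of 2 newborn mice of strain B6NCrl, pup 1 and pup 3, which are the replicates of a single group at postnatal day 0 with no treatment. Each library was made from 13 pg of total RNA longer than 200 nt from the hindbrain of 1 pup, an amount the labels equate with 1 cell, although the material was tissue. The labels give both animals the same donor record and leave their sex uncollected. With 1 library per pup, differences between the pups have no test, the spread of 2 values may be technical, and no cause of a difference can be assigned.

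The pup 1 library held 35462381 expected counts (reads, with those shared among transcripts divided by estimate) and the pup 3 library 29866728. At an expected count of at least 5, 12251 nuclear genes were detected in pup 1 and 10527 in pup 3. Levels are in TPM, counts divided by transcript length and scaled to a fixed total, here that of the nuclear genes. Of the 21461 protein-coding genes, 37.8% were detected in both pups. Of 14 hindbrain region markers, 8 were detected in both pups, among them Hoxb5, Hoxa2 and Pax3, and 3 in neither, among them Hoxb2 and En2 at 0. Of 10 forebrain markers, 7 were at 0 in both pups, among them Emx1 and Emx2, while Otx1 and Neurod6 were detected in both.

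The 4 genes share a 532-base second exon that codes for most of the DNA-binding and dimerization domain and that lay in every coding transcript spanning it. On GRCm38 it is exon chr4:97783082-97783613 in Nfia, chr4:82498238-82498769 in Nfib, chr10:81420267-81420798 in Nfic and chr8:84771784-84772315 in Nfix, wholly coding in all 4. Nfic and Nfix were the closest pair, identical at 82.0% of its bases, and Nfia and Nfic the most distant at 75.8%. All 4 genes carried the same base at 351 of the 532 positions (66.0%). Of the 181 positions that varied, 135 (74.6%) were at codon position 3. The 150-base stretch with the most identical bases, bases 53 to 202 of the exon, is shown from the GENCODE M21 transcripts because it displays both the shared core and the differences by which reads can be assigned to a gene. Capitals mark the 110 bases that are the same in all 4 genes.
Nfia: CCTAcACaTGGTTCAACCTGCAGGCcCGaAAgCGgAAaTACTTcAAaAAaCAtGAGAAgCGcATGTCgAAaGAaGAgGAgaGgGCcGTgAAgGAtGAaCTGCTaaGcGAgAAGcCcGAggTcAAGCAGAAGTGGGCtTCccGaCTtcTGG
Nfib: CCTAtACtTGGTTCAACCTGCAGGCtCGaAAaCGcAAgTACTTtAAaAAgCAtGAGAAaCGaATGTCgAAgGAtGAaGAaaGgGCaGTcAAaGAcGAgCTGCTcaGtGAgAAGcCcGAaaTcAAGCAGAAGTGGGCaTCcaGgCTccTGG
Nfic: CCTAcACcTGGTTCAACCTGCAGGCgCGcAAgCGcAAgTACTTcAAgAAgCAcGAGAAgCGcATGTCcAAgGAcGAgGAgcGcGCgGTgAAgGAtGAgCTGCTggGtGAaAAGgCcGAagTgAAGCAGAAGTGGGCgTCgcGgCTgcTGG
Nfix: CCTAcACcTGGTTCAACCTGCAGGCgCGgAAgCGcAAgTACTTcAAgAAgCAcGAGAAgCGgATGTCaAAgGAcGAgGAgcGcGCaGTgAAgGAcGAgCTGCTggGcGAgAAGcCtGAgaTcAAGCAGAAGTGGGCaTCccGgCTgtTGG
These stretches lie at chr4:97783134-97783283 on the plus strand for Nfia and, on the minus strand, at chr4:82498568-82498717 for Nfib, chr10:81420597-81420746 for Nfic and chr8:84772114-84772263 for Nfix. The longest run shared by all 4 genes in the exon was 17 bases. No 50-base word of any member's transcripts occurred in another member. Words shared with any other gene were 0 of 11026 for Nfia, 0 of 15091 for Nfib, 24 of 6618 for Nfic (0.363%) and 100 of 7477 for Nfix (1.34%). The deposited posterior SD of the expected count, a measure of how uncertain the division of shared reads is, was 0 for Nfia, Nfib and Nfic in both pups and 1.24 and 0.24 counts for Nfix in pup 1 and pup 3.

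All 4 NFI genes were detected in both pups, where 37.8% of the 21461 protein-coding genes were. Nfib was the member at a like level in both animals, at 85.2 TPM in pup 1 against 100.5 TPM in pup 3. Nfia and Nfix were high in pup 1 and low in pup 3, and Nfic, the lowest member on average, was higher in pup 3. In order of mean TPM the genes ran Nfix (139 ± 128), Nfib (92.9 ± 10.8), Nfia (63.8 ± 59.0) and Nfic (33.6 ± 15.1; SD, n = 2 for each). The values of neighbours in this order overlapped between genes, so the order of neighbours lay within their spread. By expected count, with no regard to length, Nfix was the third gene in both pups, after Nfia and Nfib. The level of Nfic in either pup was below both values of Nfib and both values of Nfix.

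**Figure D1:**
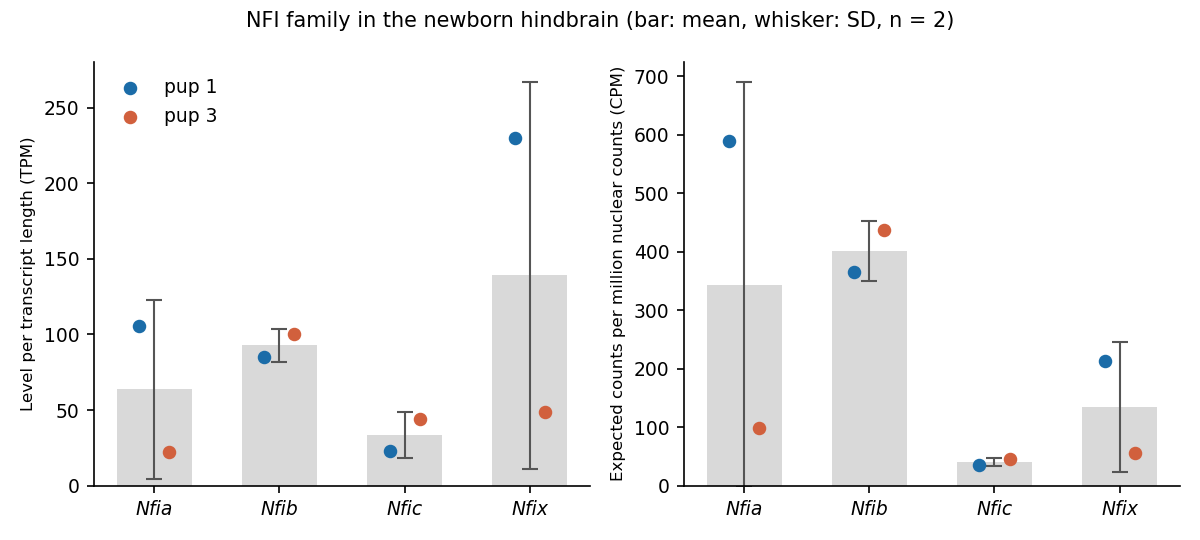
Level of each NFI gene in each pup as TPM (left) and as CPM, the expected count scaled to a fixed total of nuclear counts (right). Bars are means and whiskers the SD of 2 pups, with the CPM whisker of Nfia running to the axis; Nfia and Nfix are lower in pup 3 on both scales, and the values of Nfib lie close together.

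Nfia (ENSMUSG00000028565.14, chr4:97772734-98118874, plus strand), a factor that SOX9 induces at the onset of glial differentiation, had 19709 expected counts in pup 1 and 2793 in pup 3. These gave 105 and 22.0 TPM, a 4.79-fold higher level in pup 1 (log2 ratio of pup 3 over pup 1 of -2.21, with 1 added to each TPM here and below). Its level exceeded that of 84.4% of the 10735 protein-coding genes detected in pup 1, and that of 37.3% of 9272 in pup 3. Nfia was therefore among the abundant genes of one animal and below the middle of the other.

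Nfix (ENSMUSG00000001911.12, chr8:84699876-84800344, minus strand), which limits progenitor self-renewal and promotes differentiation, had 7151 expected counts in pup 1 and 1573 in pup 3. Its level was 229.7 TPM in pup 1 against 48.7 TPM in pup 3, 4.72-fold higher in pup 1 (log2 ratio -2.22). It passed 93.4% of the detected protein-coding genes in pup 1 and 61.9% in pup 3. As CPM, counts scaled to the same total of nuclear counts with no regard to transcript length, it stood at 213.7 and 55.6, a ratio of 3.84, just under 4-fold. Nfia differed 5.96-fold on that scale.

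Nfib (ENSMUSG00000008575.13, chr4:82290173-82705750, minus strand), which acts in gliogenesis and in the pontine and granule neuron lineages, had 12227 expected counts in pup 1 and 12363 in pup 3. The 1.18-fold higher TPM in pup 3 was the smallest difference in the family (log2 ratio 0.24). Nfib passed 80.9% of the detected protein-coding genes in pup 1 and 79.2% in pup 3, so its rank was also alike in both animals.

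Nfic (ENSMUSG00000055053.13, chr10:81396186-81455635, minus strand), the member with the least described role in brain, had 1192 expected counts in pup 1 and 1274 in pup 3. Its level was 22.9 and 44.2 TPM, 1.93-fold higher in pup 3 (log2 ratio 0.92). On CPM the values were 35.6 and 45.0, only 1.26-fold apart. The effective length by which counts were divided was 2513 bases in pup 1 and 1577 in pup 3. That length follows from which transcripts the reads were assigned to, described below.

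Members past a 4-fold difference numbered 2, Nfia and Nfix, both lower in pup 3. Among the 12300 nuclear genes that reached 50 expected counts in a library, 24.0% were lower in pup 3 by that much, 16.7% were higher and 40.7% were either. Among the 3381 of them within the members' range of mean TPM the shares were 8.37% lower and 10.3% higher. The median log2 ratio was -0.99 over the 4 members, -0.16 over the 12300 genes and 0.12 over the 3381 genes of like level. On CPM, an alternative added after the values were seen, 1 member (Nfia) passed 4-fold, where 25.4% of genes were lower by that much. No member passed 8-fold.

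**Figure D2:**
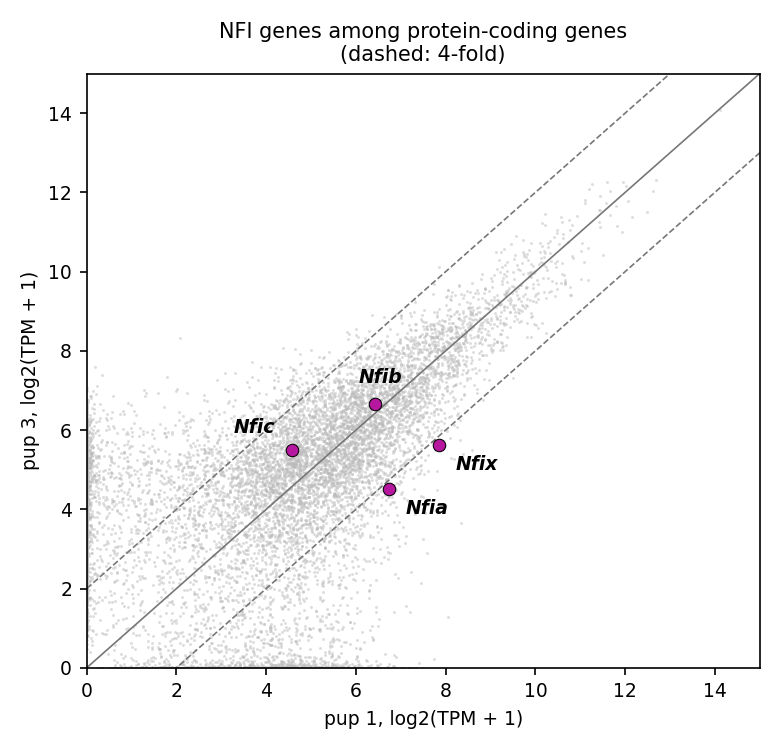
Level of each protein-coding gene with at least 50 expected counts in a library, in pup 1 (horizontal) and pup 3 (vertical) as log2(TPM + 1). The 4 NFI genes are in purple, the solid line is at equal levels and the dashed lines are at 4-fold. Nfib lies by the line of equal levels, Nfic above it, and Nfia and Nfix just beyond the lower 4-fold line.

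The make-up of the family differed accordingly. The summed level of the 4 genes was 443.3 TPM in pup 1 against 215.4 TPM in pup 3. Nfix supplied 51.8% of it in pup 1 and 22.6% in pup 3, and Nfib 19.2% and 46.7%. Nfia supplied 23.8% and 10.2%, and Nfic 5.16% and 20.5%. Per transcript length the first gene was Nfix in pup 1 and Nfib in pup 3. Shares of the family's expected counts, which are not per length, were 48.9% and 15.5% for Nfia, 30.4% and 68.7% for Nfib, 17.8% and 8.74% for Nfix and 2.96% and 7.08% for Nfic. The largest share of counts thus lay on Nfia in pup 1, where its effective length was 9016 bases, against 1503 for Nfix.

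The deposited tables give an interval for each TPM, computed within a library, so it holds no spread between animals; the sources used here do not state its level. On the rescaled TPM, Nfia ran from 101.8 to 105.1 in pup 1 and from 20.6 to 22.7 in pup 3. Nfix ran from 218.6 to 230.8 in pup 1 and from 44.3 to 52.6 in pup 3. For Nfib the bounds were 81.8 and 85.5 TPM in pup 1 and 96.4 and 100.5 TPM in pup 3, and for Nfic 19.7 and 25.7 TPM in pup 1 and 40.6 and 46.4 TPM in pup 3. The TPM of Nfia in pup 1 and of Nfib in pup 3 lay slightly above their own upper bounds. These intervals cover the assignment of reads within a library, and no comparison of the pups was drawn from them.

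The tables list 34 transcripts of the 4 genes, and 11 of them were at 0 in both pups. Their shares below are percents of the TPM of the gene. The leading transcript was the same in both pups for Nfia, Nfib and Nfix and differed for Nfic. Among 5563 protein-coding genes with at least 2 listed transcripts and 50 counts in both libraries, it differed in 36.4%, and among the 2745 with at least 6 transcripts in 48.3%. The share of a gene's TPM that sat on other transcripts in pup 3 than in pup 1 was 11.6 percentage points for Nfib, 21.1 for Nfix, 48.9 for Nfia and 86.3 for Nfic.

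**Figure D3:**
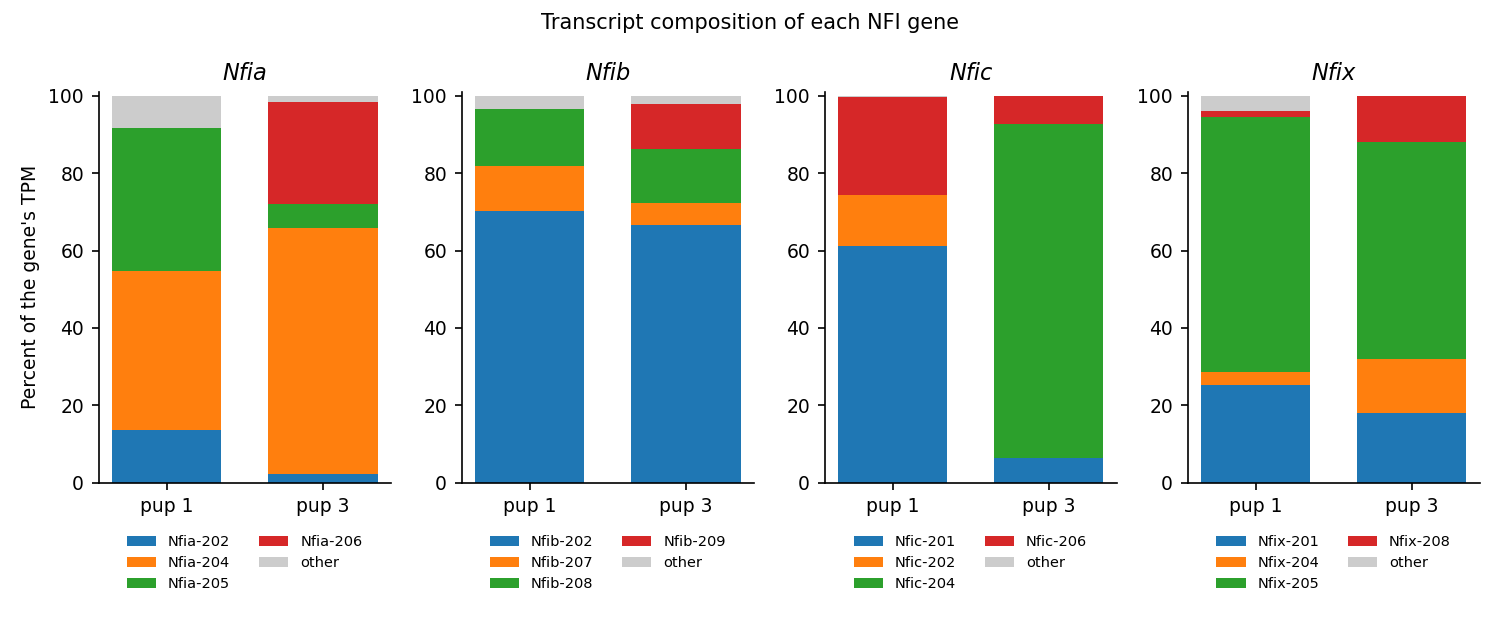
Percent of each NFI gene's TPM by transcript in pup 1 and pup 3, with transcripts of at least 10% in either pup coloured and the rest in grey. Nfib keeps 1 leading transcript at 70.2% and 66.6%, and the leading transcript of Nfic is Nfic-201 in pup 1 and Nfic-204 in pup 3.

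In Nfib, the transcript Nfib-202, with a coding length of 1260 bases, took 70.2% of the TPM in pup 1 and 66.6% in pup 3. Retained-intron models, which carry no annotated coding sequence, took 26.4% and 31.3% together. Among these, Nfib-208 was alike in both pups at 14.8% and 14.0%, and Nfib-207 took 11.7% and 5.77%. Nfib-209 had 1.25 expected counts in pup 1 and 682 in pup 3, where it took 11.6%. The Nfib exons of 166, 83 and 89 bases near the 3′ end of the coding sequence lay in 3.46% of the spanning coding TPM in pup 1 and in 2.36% to 2.43% in pup 3. Among coding transcripts, the form without these exons thus held most of the Nfib TPM in both animals.

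In Nfia, Nfia-204 led in both pups, with 41.2% of the TPM in pup 1 and 63.8% in pup 3. Nfia-205 took 37.1% in pup 1 and 6.20% in pup 3, and Nfia-202 took 13.5% and 2.12%. Nfia-204 (coding length 1140 bases) lacks exons of 66, 75, 118 and 128 bases that follow the common exon in Nfia-205 (1494 bases) and Nfia-202 (1527 bases). Over all coding transcripts, the 66-base and 75-base exons were present in 58.8% of the spanning TPM in pup 1 and in 13.4% in pup 3. The junctions that tell the forms apart are shown with the last 30 bases of the common exon in lower case and the first 30 bases of the next exon in capitals.
Nfia-204: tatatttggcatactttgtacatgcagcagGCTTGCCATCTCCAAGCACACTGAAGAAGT
Nfia-205: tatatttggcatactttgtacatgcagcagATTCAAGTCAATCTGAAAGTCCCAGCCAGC
The next exon lies at chr4:98041551-98041679 in Nfia-204 and at chr4:97956374-97956439 in Nfia-205, both on the plus strand of GRCm38. The division of reads among these long, largely shared transcripts was itself uncertain: the deposited posterior SD of Nfia-205 in pup 1 was 1486 on 7413 counts, and its TPM interval ran from 15.1 to 43.9. In pup 3 that transcript had 228 counts, a level of 1.36 TPM and an upper bound of 2.45 TPM. Nfia-206, a processed transcript of 1649 nt with no coding sequence and a first exon of its own, took 0.04% in pup 1 and 26.3% in pup 3. This model also carries the 66-, 75-, 118- and 128-base exons, and the shares over coding transcripts above leave it out. Its 164 counts in pup 3 were 5.86% of the gene's counts there. Coding transcripts together held 99.96% of Nfia in pup 1 and 73.7% in pup 3.

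In Nfic, Nfic-201 took 61.1% of the TPM in pup 1 and 6.35% in pup 3, on 941 and 167 expected counts. Nfic-204 took 0% in pup 1 and 86.3% in pup 3, on 0 and 1085 counts, with an upper bound of 0.289 TPM in pup 1 and a level of 38.2 TPM in pup 3. These models differ at both ends: Nfic-204 starts at an upstream first exon (chr10:81430786-81431005, minus strand) and has a short 3′ end, while Nfic-201 starts at chr10:81427076-81427173 and is 3348 nt long, against 1655 nt. Their internal exons are the same. Which end of the transcript the reads of pup 3 came from was not tested, since the tables hold no positions of reads. Nfic-202, which starts at the same first exon group as Nfic-201, took 13.4% in pup 1 and 0% in pup 3. The 476-nt processed transcript Nfic-206, near the 3′ end of the gene, took 25.2% and 7.37% of the TPM but only 3.77% and 1.76% of the counts.

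In Nfix, Nfix-205 led in both pups with 65.8% and 55.9% of the TPM. Its annotated model of 1465 nt has no 3′ end, so it holds coding sequence alone. Nfix-201 took 25.2% in pup 1 and 18.0% in pup 3. Nfix-204, a 5476-nt transcript from the proximal first exon, took 3.48% and 14.0%, and as a share of the gene's expected counts 12.4% and 42.7%. Nfix-208, a 234-nt processed transcript, took 1.54% and 12.1% of the TPM on 9.88 and 14.5 counts. Exons of 123 and 148 bases, present in Nfix-204 and Nfix-205 and absent from Nfix-201, lay in 70.4% of the spanning coding TPM in pup 1 and 79.6% in pup 3.

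**Figure D4:**
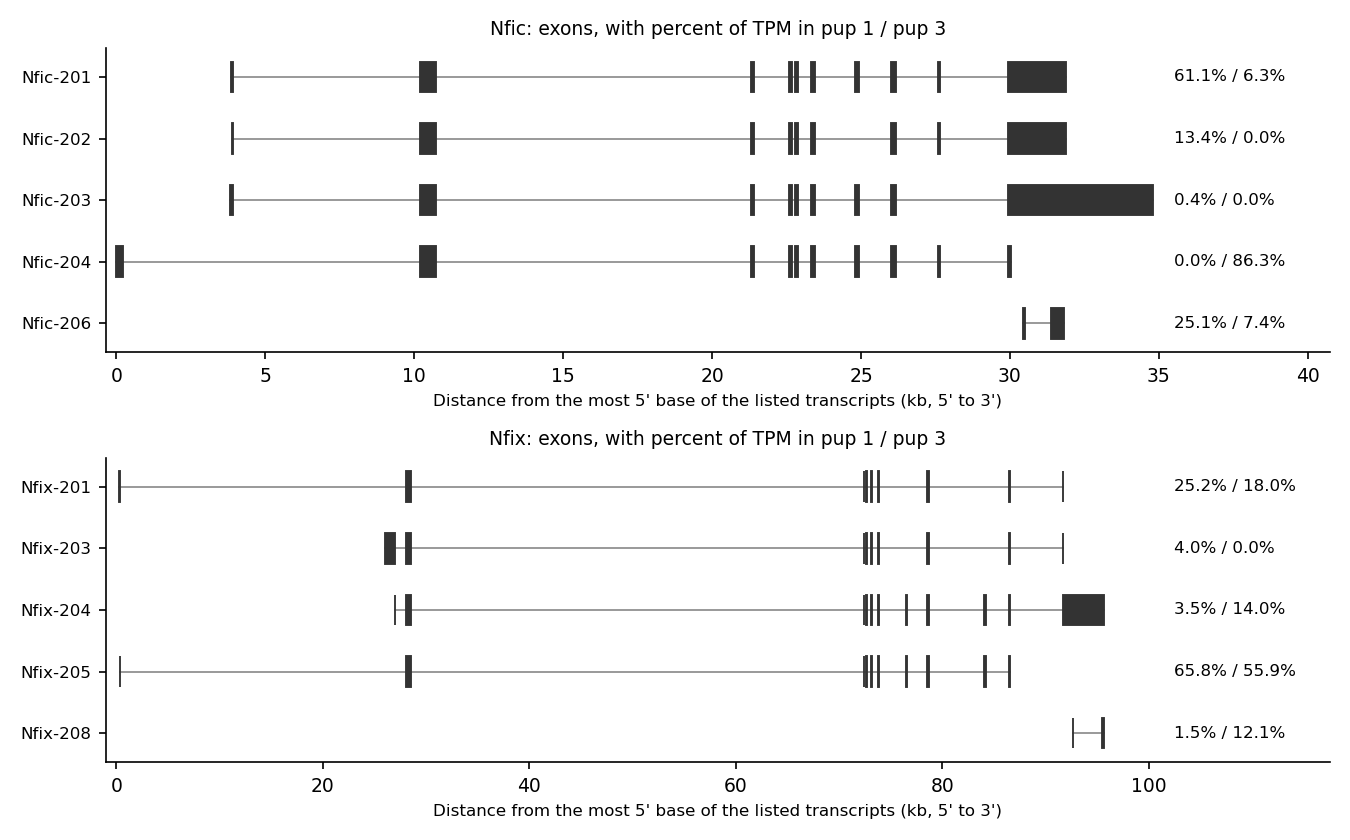
Exons (boxes) and introns (lines) of the Nfic and Nfix transcripts above 0 in either pup, against distance in kb from the most 5′ base, with each transcript's percent of the gene's TPM in pup 1 and pup 3. Nfic-204, at 86.3% in pup 3, has the most upstream first exon and a short last exon, and Nfix-205, the leading Nfix model, ends before the last exon of Nfix-204.

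First exons decide the first residues of the NFI proteins, ahead of the shared domain. The coding part of the first exon is shown in lower case, followed in capitals by the first 30 bases of the common exon, for the leading transcripts and for the alternative starts of Nfic and Nfix.
Nfia-204: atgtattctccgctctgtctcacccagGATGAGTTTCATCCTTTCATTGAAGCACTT
Nfib-202: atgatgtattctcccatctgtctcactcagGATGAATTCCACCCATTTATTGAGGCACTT
Nfic-201: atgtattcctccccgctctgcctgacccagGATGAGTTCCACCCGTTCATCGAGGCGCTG
Nfic-204: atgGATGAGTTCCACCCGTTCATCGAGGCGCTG
Nfix-205: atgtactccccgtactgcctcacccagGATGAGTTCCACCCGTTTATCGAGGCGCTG
Nfix-204: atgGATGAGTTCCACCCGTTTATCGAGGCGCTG
Nfic-204 and Nfix-204 carry only the 3 bases of a start codon before the common exon, where the other 4 shown carry 27 or 30 bases. The first exons lie at chr4:97777834-97777994 for Nfia-204 (plus strand) and, on the minus strand, at chr4:82504731-82505308 for Nfib-202, chr10:81427076-81427173 for Nfic-201, chr10:81430786-81431005 for Nfic-204, chr8:84799998-84800024 for Nfix-205 and chr8:84773354-84773396 for Nfix-204. Nfic-204, the model with the short start, held 0% of that gene's TPM in pup 1 and 86.3% in pup 3, with the limit given above that it also differs from Nfic-201 at the 3′ end. The proximal first exons of Nfix held 7.45% and 14.0%, against 91.0% and 73.9% for the distal group. As shares of the gene's expected counts these were 18.2% and 42.7%, against 81.7% and 56.4%. The proximal model Nfix-204 also differs from Nfix-205 and Nfix-201 by a longer 3′ end. Which end its reads came from was not tested, so these shares do not measure first-exon use alone. In Nfia and Nfib a single first-exon group held most of the TPM: 99.5% and 73.7% for Nfia, and 99.2% and 99.6% for Nfib.

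Genes that overlap the members could share reads with them where transcripts hold the same sequence. The sources used here do not say if counting used strand. No 50-base word of Nfia or Nfib occurred in another gene on either strand. The 24 shared words of Nfic were in Gm16104. The 100 shared words of Nfix occurred across 433 other genes, and 92 of these words were in G430095P16Rik. E130114P18Rik, on the opposite strand, overlaps the 5′ end of Nfia by 5345 bases and had 845 counts in pup 1 and 724 in pup 3. The genes that overlap Nfix on the other strand had few counts: Lyl1 had 0 and 31, and G430095P16Rik had 18.4 and 0. Gm16104, which overlaps Nfic, and Gm11266, Gm11267, Gm11268, Gm11269 and n-R5s188, which overlap Nfib, were at 0 in both pups.

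Among 116 transcription factors of neural development, few were above the leading NFI genes. In pup 1, 2 factors were higher than Nfix, 8 higher than Nfia, 10 higher than Nfib and 38 higher than Nfic. In pup 3 the numbers were 19 for Nfix, 36 for Nfia, 12 for Nfib and 21 for Nfic. Factors among the nearest to each member by Euclidean distance of log2(TPM + 1), which over 2 libraries compares only 2 levels, were Klf7, Bcl11a and Ebf1 for Nfib, Neurod6 and Etv1 for Nfic, Tfap2b, Id1 and Pou4f1 for Nfia, and Nr2f1, Sox11 and Tcf12 for Nfix. Klf7, a Krüppel-like factor of neurons, stood at 79.6 TPM in pup 1 against 112 TPM in pup 3, a distance of 0.19 from Nfib. Tfap2b, an AP-2 factor of cerebellar inhibitory neurons, stood at 65.0 and 13.5 TPM, a distance of 0.96 from Nfia. Nr2f1, an orphan nuclear receptor of neural patterning, stood at 143 and 45.9 TPM, a distance of 0.68 from Nfix.

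Of 11 genes known to act with NFI factors or to control them, 8 were detected in both pups, where 37.8% of the 21461 protein-coding genes were. Sox9, the inducer and partner of Nfia, was at 21.8 TPM in pup 1 against 8.19 TPM in pup 3. Meis1, a homeodomain partner of NFI at granule neuron genes, was at 228 and 194.5 TPM, and Etv1, an ETS factor that acts there too, at 16.6 and 58.5 TPM. Hes5, a Notch effector, was at 56.4 and 7.78 TPM. Ski, a corepressor that binds NFI proteins, had 5 counts in pup 1, the detection minimum, and 787 in pup 3. Nfatc4, a calcium-regulated factor that holds back NFI targets in immature granule neurons, was at 0 in both pups, where 3 counts would be 0.0409 and 0.0463 TPM. Hes5 was past 4-fold lower in pup 3 and Ski past 4-fold higher, 1 gene in each direction of the 8 with at least 50 counts. Over all 12300 genes, 24.0% were lower by that much and 16.7% higher.

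Of 9 glial genes linked to NFI factors, 8 were detected in both pups, where 37.8% of all protein-coding genes were. Of the 9, 7 were lower in pup 3 on TPM and 6 on CPM, where Zcchc24 was higher. Fabp7, the radial glial fatty acid-binding protein, was the most abundant at 2791 and 3012 TPM, followed by the glutamate transporter Slc1a3 at 532 and 281 TPM. Mmd2, a SOX9 and NFIA target of early gliogenesis, was at 210.6 and 162 TPM, and Apcdd1, another, at 23.3 and 56.1 TPM. Gfap, the astrocyte intermediate filament gene whose promoter NFI binds, was at 166 and 73.8 TPM. Aldh1l1, a folate enzyme of astrocytes, had 1 count in pup 3 against 6228 in pup 1 and was the only gene of the list past 4-fold. The median log2 ratio of the list was -0.37, against -0.16 over all 12300 genes, of which 24.0% were lower in pup 3 by at least 4-fold.

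Among 7 granule neuron genes linked to NFI factors, 3 were detected in both pups, where 37.8% of all protein-coding genes were. Each of the 3 was higher in pup 3. The cadherin gene Cdh2 was at 51.9 TPM in pup 1 against 107.5 TPM in pup 3, the axonal adhesion gene Cntn2 at 20.3 and 41.0 TPM, and the ephrin receptor gene Ephb1 at 16.8 and 23.1 TPM. None of these was past 4-fold, where 16.7% of all 12300 genes were higher by that much. Gabra6 and Grin2c, receptor subunits of mature granule neurons, and Tiam1, an exchange factor for Rac, were at 0 in both pups, where 3 counts would be at most 0.0800 TPM. Wnt7a, a secreted signal of granule neurons, had 533 counts in pup 1 and 0 in pup 3.

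Progenitor genes that NFI factors are known to repress were mixed. Of 5, 3 were detected in both pups, where 37.8% of all protein-coding genes were. These were Bbx at 22.3 TPM in pup 1 against 8.66 TPM in pup 3, Hes1 at 3.99 and 1.48 TPM, and Sox9. Ezh2, the methyltransferase of Polycomb complex 2, had 1703 counts in pup 1 and 1 in pup 3. Insc, which orients the mitotic spindle, had 0 counts in pup 1 and 1210 in pup 3. So 4 of these 5 genes were lower in pup 3 and 1 was higher. Their median log2 ratio was -1.27, against -0.16 over all 12300 genes. Ezh2 was past 4-fold lower and Insc past 4-fold higher, 1 gene in each direction of the 5. Over all 12300 genes, 24.0% were lower by that much and 16.7% higher.

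**Figure D5:**
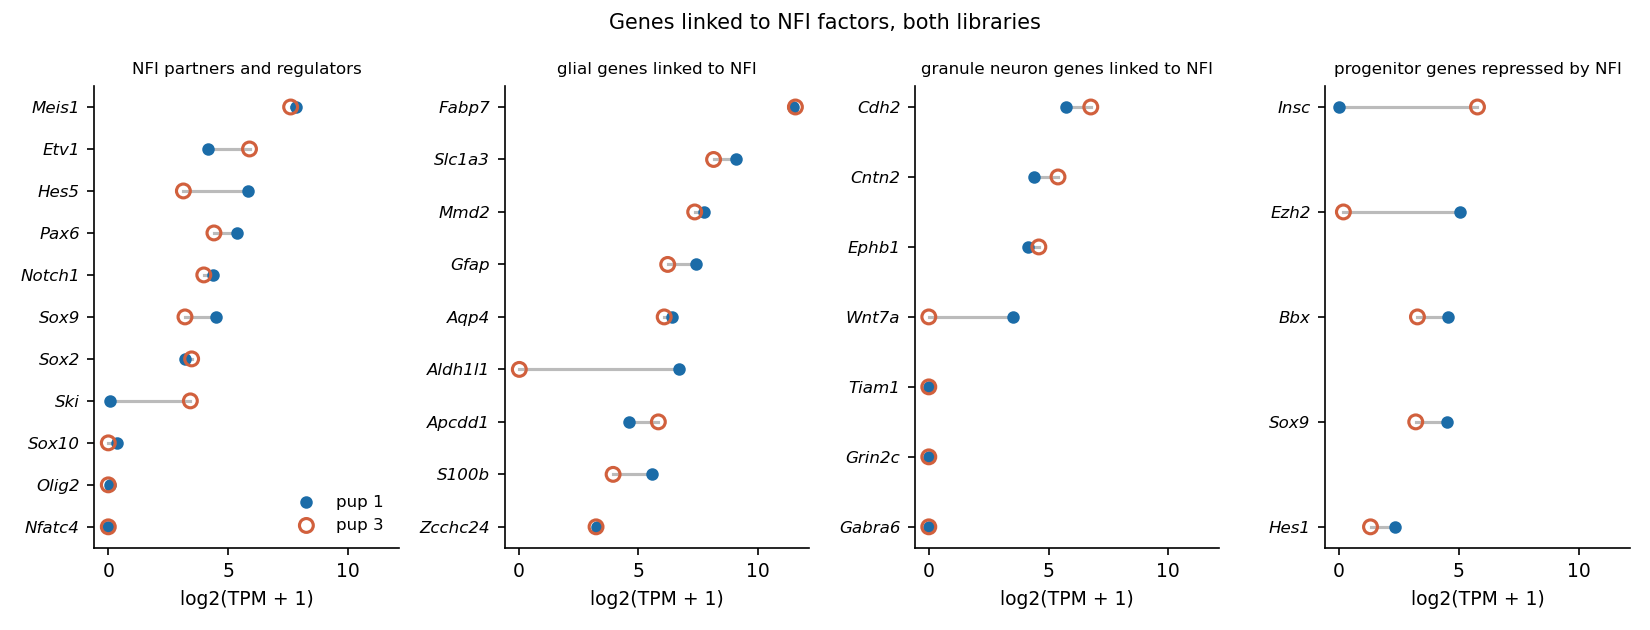
Levels of genes linked to NFI factors as log2(TPM + 1) in pup 1 (filled) and pup 3 (open), a grey line joining the values of each gene. Aldh1l1, Ezh2 and Wnt7a are at or near 0 in pup 3 only, Insc and Ski in pup 1 only, and Nfatc4, Gabra6, Grin2c and Tiam1 are at 0 in both.

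Cell type markers also differed between the libraries. Of 10 astrocyte and radial glia markers, 9 were lower in pup 3 on TPM and 7 on CPM, where Apoe and Slc1a2 were higher, and their summed level was 8204 TPM in pup 1 against 7467 TPM in pup 3. Fabp7, Slc1a3, Gfap, Aqp4, Aldh1l1 and S100b are in this list and in that of glial genes linked to NFI. Of 8 neuronal markers, 4 were lower and 4 higher in pup 3 on TPM, and 5 lower and 3 higher on CPM, where Syt1 was lower, with sums of 8125 and 5261 TPM. Of 9 oligodendrocyte lineage markers, 6 were lower in pup 3, with sums of 594 and 321 TPM, and Olig2 and Sox10 had 2 and 15 counts in pup 1 and 0 in pup 3. Sums of the 7 meningeal markers were 2641 and 4706 TPM, of the 8 endothelial and mural markers 277 and 456 TPM, and of the 8 microglia markers 209.9 and 193.6 TPM. Of the meningeal markers, 5 were higher in pup 3 and 2 lower, and Ptgds alone was at 2333 and 4325 TPM. Of the endothelial and mural markers, 3 were higher and 5 lower. Microglia markers were split, 4 higher and 4 lower, with Csf1r at 2027 and 0 counts and P2ry12 at 0 and 940. These directions were the same on CPM. Among markers with at least 50 counts, 1 of 10 astrocyte and radial glia markers was past 4-fold lower in pup 3. So were 2 of 7 oligodendrocyte, 1 of 6 meningeal and 0 of 8 neuronal markers, and these lists held none past 4-fold higher. Endothelial and mural markers had 1 of 6 in each direction, and microglia markers 3 of 7 in each. Over all 12300 genes, 24.0% were lower by that much and 16.7% higher, with a median log2 ratio of -0.16. The part of cell types in the differences of Nfia and Nfix was not tested. In RNA of mixed tissue, fewer cells of a type and less RNA per cell cannot be told apart.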

How the data were processed

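Both libraries formed 1 group, so no test between groups was possible, and values are given per pup or as mean ± SD (n = 2). The authors deposited a gene table and a transcript table per library, made on mm10 with annotation M4 per the deposited notes. RNA was extracted by the mirVana method, and a Smart-seq protocol is linked, per the labels. Per the file headers, the tables hold expected counts, deposited TPM values over all entries, including spike-ins and mitochondrial genes, deposited FPKM values and, per transcript, the percent of the gene's TPM. The authors also deposited posterior SDs of the counts and interval bounds of TPM. The quantifier, its version and the strand setting were not stated in the sources used here.

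Symbols, transcript models, sequences and coordinates (1-based) came from GENCODE M21 on GRCm38, the same assembly, which matched 42462 of the 43346 mouse genes (98.0%). TPM and its interval bounds were rescaled to a fixed total over the 43309 nuclear genes, which held 88.6% (pup 1) and 89.6% (pup 3) of the deposited TPM. The deposited table totals were 35462381 and 29866728 expected counts, but reads amplified from 13 pg of RNA are not independent molecules. The error of drawing and amplifying those molecules is not covered by any interval here. Detection was an expected count of at least 5. Folds of 4 were counted among genes with at least 50 counts in a library, on log2(TPM + 1), which understates the differences of low genes. Exon presence is a percent of the TPM of coding transcripts that span the exon. Identity was computed on bases of the common exon in place of proteins. Shared words were searched on both strands of all M21 transcripts.

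The members, the gene lists and the alternatives were chosen with earlier results of these data known. The rule for named genes took the 4 members, their transcripts with at least 10% in either pup, listed genes that overlap a member, the 3 nearest neural transcription factors by level, the 3 genes of highest mean TPM in each linked, Zic and Sox list, and linked genes at 0 in both pups. A gene named by the rule is not reported here. Other list genes were named after their values were seen. Alternatives were other detection minimums, pseudocounts, folds and count filters, deposited TPM, FPKM, CPM, edgeR 4.0.16 and DESeq2 1.42.0 scaling factors on rounded expected counts, and each library alone. CPM and scaling factors for the count of members past 4-fold, the spike-in scaling and list directions on CPM were added after the data were seen. Python 3.11.15, numpy 2.4.6, pandas 2.3.3, matplotlib 3.10.9 and R 4.3.3 were used.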

Additional observations from a re-analysis of the deposited data

How the results depend on the processing

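All 4 members were detected in both pups under each of the other detection minimums tried. The 2 members past 4-fold, Nfia and Nfix, became 0 at 8-fold and 1 (Nfia) on CPM, and stayed 2 under the other 9 settings tried. No log2 ratio of a member changed sign over 9 settings: Nfia ranged from -2.73 to -2.03, Nfix from -2.24 to -1.92, Nfib from 0.09 to 0.31 and Nfic from 0.17 to 1.00. Over the 8931 genes detected in both pups, the median log2 ratio was 0.12 on rescaled TPM, 0.02 with edgeR factors, -0.007 with DESeq2 factors and 0.19 with spike-in scaling. As a share of expected count in place of TPM, Nfib-202 took 83.4% in place of 68.4%, and Nfix-205 took 51.5% in place of 60.9%; length does not enter the count share. Each library alone gave mean levels of 22.0 to 105 TPM for Nfia, 85.2 to 100.5 for Nfib, 22.9 to 44.2 for Nfic and 48.7 to 229.7 for Nfix. It gave shares of the leading transcript of 41.2% to 63.8% for Nfia-204, 66.6% to 70.2% for Nfib-202, 0% to 86.3% for Nfic-204 and 55.9% to 65.8% for Nfix-205. No paired analysis was possible because the libraries form 1 group.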

Other observations

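The Zic and Sox families are given beside the NFI genes as other factors of neural development. All 5 Zic genes, zinc finger factors of cerebellar granule neurons and dorsal hindbrain, were detected in both pups and were lower in pup 3 on TPM. None was past 4-fold, where 24.0% of all 12300 genes were lower by that much. On CPM, Zic4 was higher and 4 were lower. Zic4 was at 26.8 TPM in pup 1 against 23.7 TPM in pup 3, Zic1 at 26.9 and 14.2 TPM, and Zic5 at 26.4 and 12.4 TPM. Of 14 Sox genes, 5 were detected in both pups, where 37.8% of the 21461 protein-coding genes were. Of the 8 Sox genes with at least 50 counts, 3 were past 4-fold lower in pup 3 and 0 were past 4-fold higher. Sox11, a factor of immature neurons, was at 159 and 79.8 TPM, Sox12 at 11.5 and 21.4 TPM, and Sox8, a factor of glial precursors, had 1762 counts in pup 1 and 0 in pup 3. Summed, the NFI genes stood at 443.3 and 215.4 TPM, the Zic genes at 91.4 and 54.5 TPM and the Sox genes at 299.6 and 129 TPM.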
